A study of Homo sapiens with 6 samples.

Results

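Heparan sulfate is built in the Golgi on core proteins such as syndecan-1, and the enzymes that make, sulfate and trim it were followed here after the syndecan-1 gene SDC1 was silenced. The rule named 33 genes, and 32 of them had at least 1 probe set that the array annotation ties to that gene alone, out of 19777 genes measured. They were read by 68 probe sets. NDST2, an N-deacetylase/N-sulfotransferase, was not analysed here.

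The cells were MDA-MB-231, a human triple-negative breast cancer line. The 3 arrays of the SDC1 siRNA group came from cells transfected with small interfering RNA against SDC1, and the 3 arrays of the control siRNA group from cells transfected with a negative control siRNA. All 6 cultures were transfected, and untransfected cells were not analysed here, which leaves gains under one siRNA and losses under the other indistinguishable. The sources used here give no siRNA sequence, dose or time after transfection, and the series design calls the 3 replicates of a group independent without saying what was repeated, so p-values measure the spread between these arrays, which may be technical.

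The chain begins with a linker of xylose, galactose, galactose and glucuronic acid on a serine of the core protein. The polymerase of EXT1 and EXT2 then adds N-acetylglucosamine and glucuronic acid in turn, and the growing chain is N-sulfated, epimerised and O-sulfated. Sulfatases and heparanase edit the finished chain outside the cell, and growth factors and chemokines bind its sulfated stretches. Most nucleotide sugars and the sulfate donor PAPS (3-phosphoadenosine-5-phosphosulfate) are made in the cytosol and carried into the Golgi or the endoplasmic reticulum.

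Values are log2 expression as deposited, centred so that each probe set has a median of 0 over the 6 arrays, so differences but not levels can be read, and genes cannot be ranked by abundance. A gene was read from those of its probe sets that fall in the brightest class found for it, averaged. Class means a log2 level of 2 to 4, 4 to 8 or 8 to 16, which the rounding of the values still shows, though some probe sets are placed a class too high. Log2 fold changes are SDC1 siRNA minus control siRNA, each with its standard error (SE) from limma over all 19777 genes, n = 3 per group, and a gene passed at an adjusted p of 0.05 or less. SDC1 itself was at -1.14, -1.16 and -1.43 in the SDC1 siRNA arrays and at 1.13, 1.32 and 1.09 in the control siRNA arrays, which left 18.7% of the control signal (-2.42, SE 0.097, adjusted p = 2.06e-06). RNA was from whole cultures, where fewer cells of a kind and less RNA per cell cannot be told apart. Of the probe sets for genes listed for a basal breast cancer line (VIM, CD44, EGFR, CAV1 and KRT18), 15 of 27 lay in the brightest class over all 6 arrays. Of those for luminal, leukocyte, endothelial, fibroblast, muscle and hepatocyte markers, 3 of 49 did. Over all single-gene probe sets the share was 26.0%. Of the 15 measured genes in those other lists, 2 rose and 2 fell, between -0.77 and 0.39. Over all genes 13.0% passed higher and 15.1% lower. Of the 5 genes listed for the basal line, VIM (-0.62), CD44 (-0.68) and EGFR (-0.41) fell, and CAV1 (0.04) and KRT18 (-0.21) did not pass. The part of either marker group in the enzyme results was not tested. The array medians lay between -0.01 and 0.01. The 24 probe sets for poly-A control transcripts, spiked into each RNA sample, averaged 0.39 to 0.68 in SDC1 siRNA replicates 1 and 2 and control siRNA replicate 1, and -0.47 to -0.43 in SDC1 siRNA replicate 3 and control siRNA replicates 2 and 3. These are called spike-in sets 1 and 2, and both hold both groups.

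Of the 32 enzymes, 8 rose and 5 fell after SDC1 siRNA, and 19 did not pass. That is 40.6% past the threshold, where 28.2% of all genes passed, 13.0% higher and 15.1% lower. The share differed by brightness class: 4.98%, 19.9% and 41.4% of all genes passed in the dim, middle and bright classes, where 0 of 3, 6 of 15 and 7 of 14 enzymes did. The median log2 fold change of the enzymes was 0.02, against 0.005 for all genes, and the median size of the change 0.17 against 0.13. The groups of arrays did not overlap for 15 of the 32, where 41.8% of all genes had groups that did not overlap. Among the 13 that passed, the size ran from 0.30 to 1.20 on the log2 scale, and 1 changed by at least 2-fold. By at least 1.5-fold, 4 rose and 1 fell, where 3.10% of all genes passed so much higher and 3.90% so much lower. Averaged over their probe sets, HS3ST1 (without its _x_at probe set) and HS3ST3B1 of these were under 1.5-fold, at 0.43 and -0.37. At the level of probe sets 16 of 68 rose and 12 fell, where 9.70% of all probe sets passed higher and 10.1% lower, 19.8% in all. The shares over all probe sets include those with no gene or several genes, while the 68 are single-gene probe sets, so the sets are unlike.

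**Figure D1:**
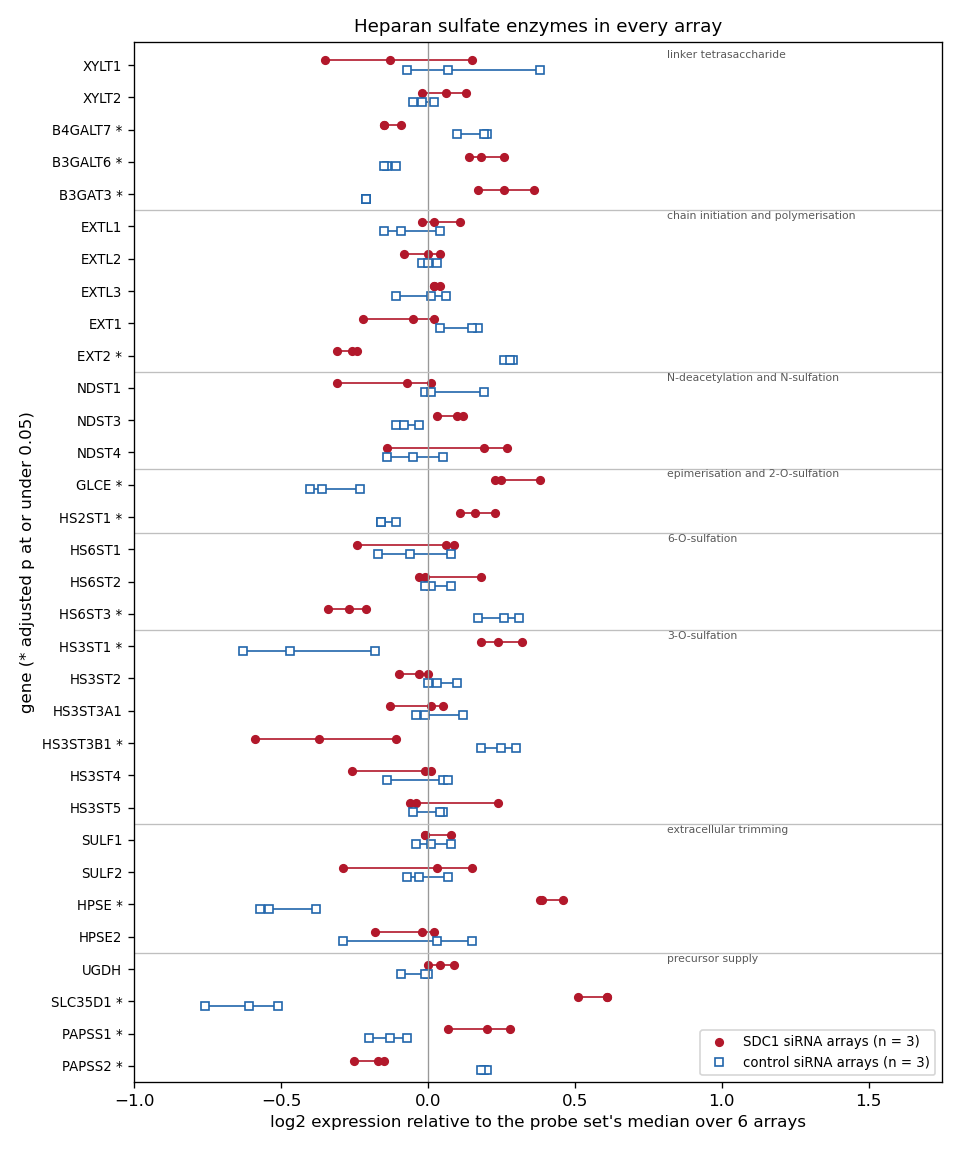
Log2 expression of the 32 heparan sulfate enzymes relative to the median of 6 arrays, arranged by step of the pathway, with 3 SDC1 siRNA arrays as red filled circles and 3 control siRNA arrays as blue open squares; lines join the lowest and highest array of a group. The 13 genes with an asterisk passed the threshold, and their groups of arrays do not overlap; SLC35D1 and HPSE lie farthest apart.

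The linker enzymes moved in both directions. Of 5, 2 rose and 1 fell. B3GAT3 makes the last sugar transfer of the linker, adding glucuronic acid. It was at 0.17, 0.36 and 0.26 in the SDC1 siRNA arrays, against -0.21 in each of the 3 control siRNA arrays. All SDC1 siRNA arrays lay above all control arrays, a difference of 0.47 (SE 0.066, adjusted p = 0.000896), or 1.39-fold, and both of its probe sets passed.

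B3GALT6, which adds the outer galactose, was at 0.14, 0.26 and 0.18 after SDC1 siRNA and at -0.11, -0.14 and -0.15 after control siRNA. It rose by 0.33 (SE 0.06, adjusted p = 0.00379), and 2 of its 3 probe sets passed. B4GALT7, which adds the inner galactose one step earlier, went the other way. It was at -0.15, -0.09 and -0.15 in SDC1 siRNA arrays and at 0.10, 0.20 and 0.19 in control siRNA arrays, and fell by 0.30 (SE 0.059, adjusted p = 0.00597). Of its 2 probe sets 53076_at passed, at -0.34, and the other was at -0.25 (adjusted p = 0.0597 over all probe sets). The xylosyltransferases that start the linker, XYLT1 and XYLT2, did not pass, at -0.24 (95% interval -0.57 to 0.10) and 0.08 (-0.07 to 0.22).

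Among enzymes of chain initiation and polymerisation, EXT2 fell and no member rose. EXT2, the subunit that EXT1 needs for stable Golgi polymerase activity, was at -0.24, -0.26 and -0.31 after SDC1 siRNA and at 0.26, 0.29 and 0.28 after control siRNA. The arrays of each group lay close together and far from the other group, and EXT2 fell by 0.55 (SE 0.056, adjusted p = 0.000173), which left 68.5% of the control signal. Its probe sets gave -0.78 and -0.32, and both passed.

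EXT1, the catalytic polymerase, was at 0.02, -0.05 and -0.22 in SDC1 siRNA arrays, against 0.17, 0.15 and 0.04 in control siRNA arrays. The groups did not overlap but the gene did not pass, at -0.20 (SE 0.078, adjusted p = 0.0897). Its 3 probe sets differed: 201995_at fell by 0.42 (SE 0.089, adjusted p = 0.0109 over all probe sets), while the other two were at 0.02 and 0.01. The call turned with the reading, to an adjusted p of 0.00493 when the brightness class was taken from all 6 arrays, which leaves 201995_at alone, and to 0.0342 with the spike-in set as a block. The exostosin-like genes EXTL1, EXTL2 and EXTL3, of which EXTL3 adds the N-acetylglucosamine that starts a heparan sulfate chain, were at 0.10, -0.01 and 0.04, and none passed.

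None of the 3 measured N-deacetylase/N-sulfotransferases passed as a gene. These enzymes replace acetyl groups by sulfate and so open the chain to the later modifications. NDST1, the form found in most tissues, was at -0.31, 0.01 and -0.07 after SDC1 siRNA and -0.01, 0.01 and 0.19 after control siRNA, and the groups overlapped (-0.19, SE 0.095, adjusted p = 0.191). These values are of 202608_s_at alone, which is in the brightest class by 3 arrays but a class lower by all 6. With the class from all 6 arrays NDST1 was at -0.16 (adjusted p = 0.11). One NDST1 probe set, 202607_at, fell by 0.33 (SE 0.079, adjusted p = 0.0197 over all probe sets), and the others were at -0.19 and 0.03. NDST3 and NDST4, whose expression is best known from brain, were both at 0.15, with adjusted p of 0.0948 and 0.361, and NDST4 passed without SDC1 siRNA replicate 2 (0.28, adjusted p = 0.0471).

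Both enzymes that act on the uronic acid rose. GLCE, the epimerase that turns glucuronic into iduronic acid, was at 0.23, 0.25 and 0.38 in SDC1 siRNA arrays and at -0.23, -0.36 and -0.40 in control siRNA arrays. All 3 SDC1 siRNA arrays were higher, by 0.62 log2 units (SE 0.071, adjusted p = 0.00032), or 1.54-fold, on the only probe set.

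HS2ST1, which sulfates that iduronic acid at the 2-O position, was at 0.16, 0.11 and 0.23 after SDC1 siRNA and at -0.11, -0.16 and -0.16 after control siRNA. It rose by 0.31 (SE 0.06, adjusted p = 0.0048). Of its 4 probe sets 3 passed, at 0.45, 0.47 and 0.42, and 203283_s_at was at 0.02 (adjusted p = 0.883). That probe set lies in the brightest class, so the gene value averages it in.

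The 6-O-sulfotransferases, which sulfate glucosamine at the 6-O position, differed among themselves. HS6ST3 fell. It was at -0.21, -0.34 and -0.27 in SDC1 siRNA arrays and at 0.31, 0.26 and 0.17 in control siRNA arrays, with no overlap, and fell by 0.52 (SE 0.066, adjusted p = 0.000527). Of its 4 probe sets 3 passed, between -0.79 and -0.52, and 1552842_at was at -0.04.

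HS6ST1 depended on the probe set read. Its gene value rests on 214165_s_at, whose values put it in the brightest class by 3 arrays but a class lower by all 6. This probe set was at 0.06, -0.24 and 0.09 after SDC1 siRNA and at 0.08, -0.06 and -0.17 after control siRNA, and did not pass (0.02, SE 0.10, adjusted p = 0.916). The other two rose: 206997_s_at by 0.30 (SE 0.072, adjusted p = 0.0203 over all probe sets) and 225263_at by 0.63 (SE 0.09, adjusted p = 0.00144 over all probe sets). For 225263_at the SDC1 siRNA arrays were at 0.23, 0.33 and 0.31 and the control siRNA arrays at -0.51, -0.27 and -0.23, with no overlap. As the mean of its probe sets, or with the class from all 6 arrays, which puts all 3 in one class, HS6ST1 rose by 0.31 (adjusted p = 0.00258 and 0.0028). HS6ST2 did not pass, at 0.02 (95% interval -0.15 to 0.19).

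Of the 6 3-O-sulfotransferases in the rule, which place the rarest sulfate group of the chain, 1 rose and 1 fell, and HS3ST6, from the list of other pathway genes, did not pass at 0.05 (adjusted p = 0.676). HS3ST1, the enzyme that completes the antithrombin-binding site of heparin, was at 0.18, 0.32 and 0.24 in SDC1 siRNA arrays and at -0.18, -0.47 and -0.63 in control siRNA arrays. The groups did not overlap, and the spread was wider in the control arrays (SD 0.23, against 0.072 in SDC1 siRNA arrays). It rose by 0.67 (SE 0.11, adjusted p = 0.00203) on 205466_s_at, the only 1 of its 3 probe sets that passed. Like that of HS6ST1, this probe set is in the brightest class by 3 arrays but a class lower by all 6. The gene rose by 0.43 (adjusted p = 0.00282) when 213991_s_at, at 0.18, was averaged in. The third, 205465_x_at, was at 0.10 (adjusted p = 0.421 over all probe sets). Within spike-in set 1 the value was 0.43 (adjusted p = 0.063).

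HS3ST3B1, which makes the 3-O-sulfated site that the herpes simplex virus envelope binds, was at -0.59, -0.37 and -0.11 after SDC1 siRNA and at 0.25, 0.30 and 0.18 after control siRNA. SDC1 siRNA replicate 3 lay nearest to the control arrays. The gene fell by 0.60 (SE 0.11, adjusted p = 0.00446), or by 0.37 (adjusted p = 0.0234) as the mean of its 3 probe sets, and by 0.34 within spike-in set 2, which holds that replicate (adjusted p = 0.129). Only 227361_at passed of its 3 probe sets, at -0.88. Its close paralogue HS3ST3A1 was at -0.04, and HS3ST2, HS3ST4 and HS3ST5 lay between -0.08 and 0.03; none of these 4 passed.

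Of the enzymes that trim the finished chain outside the cell, 1 of 4 changed. HPSE, heparanase, the endoglycosidase that cuts heparan sulfate into fragments and that also promotes shedding of syndecan-1, was at 0.39, 0.38 and 0.46 in SDC1 siRNA arrays, against -0.54, -0.38 and -0.57 in control siRNA arrays. It rose by 0.90 (SE 0.07, adjusted p = 4.14e-05), or 1.87-fold. Its probe sets gave 1.11 and 0.69, and both passed.

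The catalytically inactive relative HPSE2 was at -0.02 (95% interval -0.28 to 0.23). SULF1 and SULF2, sulfatases that remove 6-O-sulfate from the chain at the cell surface, were at 0.01 (-0.14 to 0.15) and -0.03 (-0.28 to 0.22). The groups overlapped for HPSE2, SULF1 and SULF2, and none of their 6 probe sets passed.

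Precursor supply held the enzyme set's largest change. SLC35D1, a carrier that brings UDP-glucuronic acid and UDP-N-acetylgalactosamine into the endoplasmic reticulum, was at 0.61, 0.51 and 0.61 in SDC1 siRNA arrays and at -0.61, -0.51 and -0.76 in control siRNA arrays. It rose by 1.20 (SE 0.077, adjusted p = 1.52e-05), or 2.30-fold. A further probe set, 209712_at, rose by 0.96, while 209713_s_at was at 0.06 (adjusted p = 0.64), and the mean of all 3 was 0.74 (adjusted p = 4.29e-05). UGDH, which makes UDP-glucuronic acid, did not pass at 0.07 (95% interval -0.06 to 0.21).

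The 2 PAPS synthases, which make the sulfate donor of all these sulfotransferases, moved in opposite directions. PAPSS1 was at 0.28, 0.20 and 0.07 after SDC1 siRNA and at -0.07, -0.13 and -0.20 after control siRNA, a rise of 0.32 (SE 0.073, adjusted p = 0.0113) on its only probe set. PAPSS2 was at -0.15, -0.17 and -0.25 after SDC1 siRNA and at 0.19, 0.20 and 0.18 after control siRNA, and fell by 0.38 (SE 0.059, adjusted p = 0.00153). The groups overlapped for neither gene, and all 3 PAPSS2 probe sets passed, between -0.42 and -0.29.

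**Figure D2:**
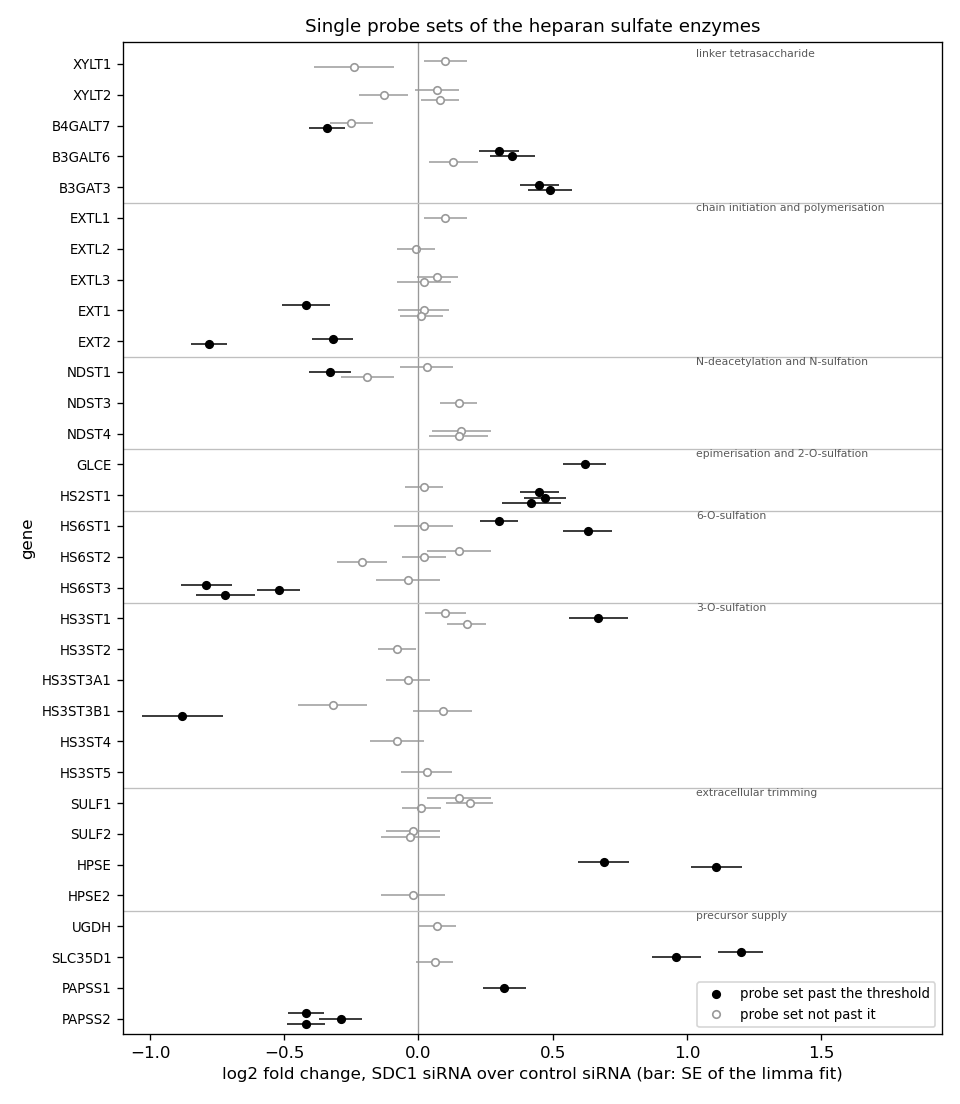
Log2 fold change of each of the 68 probe sets, SDC1 siRNA over control siRNA, with the SE of the limma fit over all probe sets as a bar; filled points passed the threshold. No enzyme has filled points on both sides of 0, while EXT1, NDST1, HS2ST1, HS6ST1, HS6ST3, HS3ST1, HS3ST3B1 and SLC35D1 have filled points beside open ones at most 0.10 from 0.

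Of the 13 enzymes that passed, 11 had more than 1 probe set. In 4 of these 11 (B3GAT3, EXT2, HPSE and PAPSS2) every probe set passed in the same direction, and in none did a probe set pass in the other direction. Where the parts of a transcript that probe sets read lie is not among the values used, so transcript forms were not told apart.

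The promoters of the 2 enzymes that rose most and the 2 that fell most are shown because their transcripts moved farthest; no binding or chromatin was measured. Sequences are RefSeq's, build GRCh38.p14, from 250 bases before to 50 after the start of the gene, 5′ to 3′ on the gene's strand, with motif matches in capitals. The motifs, searched on both strands, were the GC box GGGCGG, the CCAAT box CCAAT, the TATA box TATAAA, the E-box CACGTG, the AP-1 element TGANTCA and the ATF/CRE element TGACGTCA. SLC35D1 and HPSE rose; HS3ST3B1 and EXT2 fell.
SLC35D1: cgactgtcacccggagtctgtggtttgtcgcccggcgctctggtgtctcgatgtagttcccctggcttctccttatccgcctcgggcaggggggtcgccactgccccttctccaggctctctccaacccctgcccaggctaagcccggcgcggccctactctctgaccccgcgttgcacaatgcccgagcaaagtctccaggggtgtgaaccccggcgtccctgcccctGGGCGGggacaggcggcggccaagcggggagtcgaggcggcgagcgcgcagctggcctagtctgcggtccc
HPSE: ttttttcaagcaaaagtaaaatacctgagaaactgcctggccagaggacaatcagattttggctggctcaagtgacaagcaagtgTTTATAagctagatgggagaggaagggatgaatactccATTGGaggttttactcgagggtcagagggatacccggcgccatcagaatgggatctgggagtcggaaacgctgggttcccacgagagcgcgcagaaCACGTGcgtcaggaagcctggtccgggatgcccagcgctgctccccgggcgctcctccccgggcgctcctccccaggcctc
HS3ST3B1: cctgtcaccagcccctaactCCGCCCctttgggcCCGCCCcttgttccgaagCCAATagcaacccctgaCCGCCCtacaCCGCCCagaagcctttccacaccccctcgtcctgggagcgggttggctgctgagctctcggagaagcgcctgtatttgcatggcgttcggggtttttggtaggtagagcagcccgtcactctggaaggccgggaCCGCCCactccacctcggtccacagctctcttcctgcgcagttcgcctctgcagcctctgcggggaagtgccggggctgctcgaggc
EXT2: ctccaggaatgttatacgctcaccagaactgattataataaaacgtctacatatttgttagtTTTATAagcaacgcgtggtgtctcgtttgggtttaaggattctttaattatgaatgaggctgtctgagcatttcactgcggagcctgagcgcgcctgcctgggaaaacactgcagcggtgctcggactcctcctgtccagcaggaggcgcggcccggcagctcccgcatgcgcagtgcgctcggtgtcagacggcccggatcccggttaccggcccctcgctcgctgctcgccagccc
SLC35D1 (chr1:67054099-67054398, minus strand) held 1 GC box. HPSE (chr4:83335104-83335403, minus strand) held 1 CCAAT box, 1 TATA box and 1 E-box, and HS3ST3B1 (chr17:14300831-14301130, plus strand) held 5 GC boxes and 1 CCAAT box. EXT2 (chr11:44095428-44095727, plus strand) held 1 TATA box. In HPSE and EXT2 the TATA match reads TTTATA, on the opposite strand, and lies nearer the upstream end of the window than the start of the gene. All matches are of letters only, and none was tested as a working element. No match overlapped another in these windows. Of all 27305 promoters in the table, 44.6% held a GC box, 35.7% a CCAAT box, 12.0% a TATA box, 7.43% this E-box, 7.76% the AP-1 element and 1.98% the ATF/CRE element. Promoters were found for 28 of the 32 enzymes; EXT1, EXTL3, SULF1 and PAPSS2 were not matched. Of the 28, 21 held a GC box and 9 a CCAAT box, 4 the E-box, 3 each the TATA box and the ATF/CRE element, and 2 the AP-1 element. Their median GC content was 67.7%, against 58.3% for all promoters.

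Further genes of the pathway were taken from a list of 30 that serve the chain beside the enzymes above, and 24 were measured. Of these 6 rose and 5 fell, or 45.8%, where 28.2% of all genes passed, with a median log2 fold change of -0.04. Most of them lie in the bright class, where 41.4% of all genes passed, and none in the dim class. The others on the list were not analysed here. PXYLP1 and GFPT1 are named by the rule of a change of at least 0.5 on the log2 scale, and the other genes of the list were named after their values were seen.

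PXYLP1, the phosphatase that removes phosphate from the linker xylose and so lets the chain grow, was at 0.71, 0.82 and 0.44 in SDC1 siRNA arrays and at -0.44, -0.58 and -0.72 in control siRNA arrays. It rose by 1.24 (SE 0.11, adjusted p = 7.91e-05), or 2.35-fold, and its dim probe set was at 0.19 (adjusted p = 0.295). FAM20B, the kinase that adds the same phosphate, was at 0.07 (adjusted p = 0.638).

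Of the 12 measured genes of nucleotide sugar and sulfate supply on that list, 3 rose and 4 fell, where 13.0% of all genes rose and 15.1% fell. All of the 12 but SLC26A1 lie in the bright class, where 41.4% of all genes passed in either direction. They are described by the sugar they serve, a grouping made after their values were seen. GFPT1, the entry enzyme of the hexosamine pathway, was at -0.37, -0.34 and -0.25 in SDC1 siRNA arrays and at 0.36, 0.35 and 0.29 in control siRNA arrays. It fell by 0.65 (SE 0.061, adjusted p = 0.000107), and all 4 of its probe sets passed, between -1.19 and -0.30. UAP1, which forms the nucleotide sugar, fell by 0.44 (SE 0.063), and the Golgi carriers of UDP-N-acetylglucosamine SLC35D2 and SLC35A3 fell by 0.42 and 0.29. GNPNAT1, the acetyltransferase between GFPT1 and UAP1, had groups that did not overlap but did not pass at -0.20 (adjusted p = 0.0694).

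UGP2, which makes UDP-glucose, was at 0.29, 0.32 and 0.19 after SDC1 siRNA and -0.19, -0.20 and -0.23 after control siRNA, and rose by 0.47 (SE 0.061, adjusted p = 0.000573). UXS1, which turns UDP-glucuronic acid into UDP-xylose, was at 0.19, 0.25 and 0.27 after SDC1 siRNA and -0.20, -0.19 and -0.26 after control siRNA, and rose by 0.45 (SE 0.058, adjusted p = 0.000582). The groups did not overlap for UGP2 or UXS1. SLC35B4, a carrier of UDP-xylose and UDP-N-acetylglucosamine, did not pass at 0.15 (adjusted p = 0.161) but passed as the mean of its probe sets (0.22, adjusted p = 0.0247).

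The PAPS carrier SLC35B3 rose by 0.21 (SE 0.062, adjusted p = 0.0317), a call lost when any array but control siRNA replicate 1 was left out, with adjusted p between 0.0526 and 0.109. Averaging its probe sets (0.08, adjusted p = 0.409) or taking the spike-in set as a block (0.20, adjusted p = 0.0634) also ended it. The sulfate carriers SLC26A1 and SLC26A2 were at -0.07 and -0.10, and the UDP-galactose carrier SLC35A2 at -0.11; none of the 3 passed.

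Of 9 measured genes of lysosomal breakdown, 2 rose and 1 fell, or 33.3%, near the 28.2% of all genes that passed. IDS, the iduronate sulfatase, rose by 0.35 (SE 0.061, adjusted p = 0.00308) and SGSH, which removes N-sulfate, by 0.24 (SE 0.062, adjusted p = 0.0175). GUSB, the glucuronidase, fell by 0.24 (SE 0.074, adjusted p = 0.0434). Averaged over its probe sets other than the _x_at ones, IDS was at 0.14 (adjusted p = 0.13). Its _x_at probe sets, left out of that mean, were at 0.41, 0.20 and 0.63. GUSB, averaged over its probe sets, did not pass either, at -0.21 (adjusted p = 0.0883). GUSB was also lost without either of SDC1 siRNA replicates 2 and 3 or control siRNA replicates 1 and 2, and SGSH without SDC1 siRNA replicate 2 or control siRNA replicate 3 (adjusted p = 0.0532 and 0.0565).

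**Figure D3:**
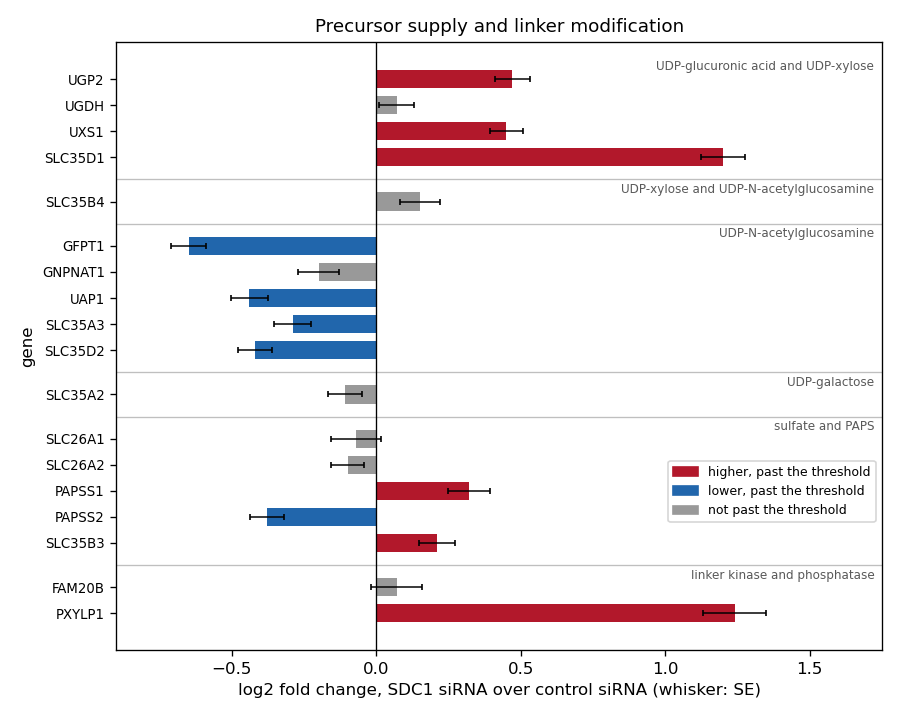
Log2 fold change, SDC1 siRNA over control siRNA, of genes that supply nucleotide sugars and sulfate or modify the linker, with the SE as a whisker; red bars passed higher, blue bars passed lower and grey bars did not pass. The headings by sugar were set after the values were seen; PXYLP1 at 1.24 and SLC35D1 at 1.20 have the longest bars, and GFPT1 at -0.65 the longest below 0.

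Within the spike-in sets, which hold 3 arrays each, all 13 enzymes that passed had the same sign as over all 6 arrays. That sign was fixed in advance, because the groups of arrays did not overlap for any of the 13, so only the sizes can differ. EXT2 (-0.51 in set 1 and -0.59 in set 2), GLCE (0.48 and 0.76), HPSE (0.92 and 0.93) and SLC35D1 (1.17 and 1.24) passed within both sets. B3GAT3 (0.48 and 0.47) and HS3ST1 (0.43 and 0.79) passed in set 2, and HS6ST3 (-0.58 and -0.48) and HS3ST3B1 (-0.73 and -0.34) in set 1. The other 5 passed in neither set: B4GALT7 (-0.23 and -0.34), B3GALT6 (0.31 and 0.33), HS2ST1 (0.25 and 0.39), PAPSS1 (0.31 and 0.24) and PAPSS2 (-0.34 and -0.45). Each set has 1 array of one of the groups, whose spread is taken from the others.

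**Figure D4:**
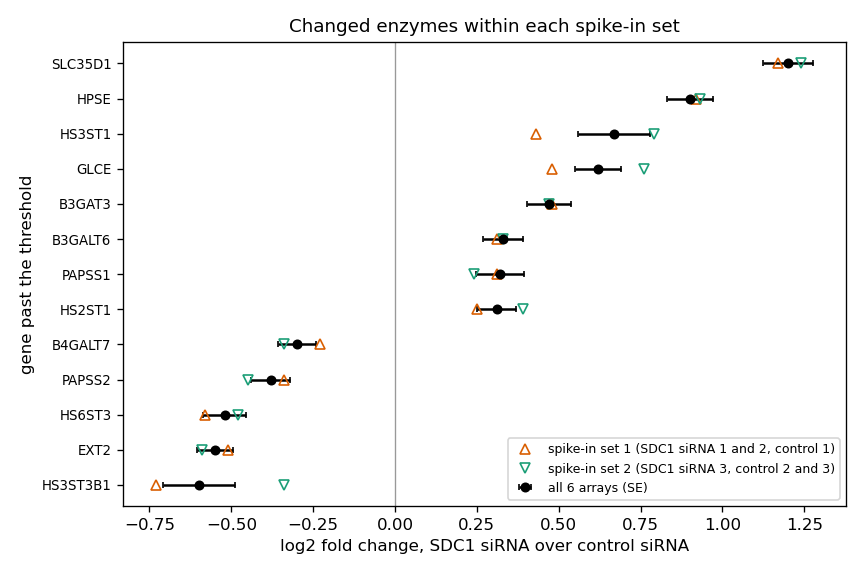
Log2 fold change, SDC1 siRNA over control siRNA, of the 13 enzymes that passed, over all 6 arrays with its SE (black) and within each spike-in set of 3 arrays (open triangles). All triangles lie on the same side of 0 as the black point, which groups of arrays that do not overlap fix in advance. HS3ST3B1, HS3ST1 and GLCE show the widest gaps between the sets.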

How the data were processed

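Biotin-labelled cRNA from 6 samples was measured on Affymetrix arrays. The deposited log2 values, 54675 probe sets per array, were made with RMA, per the submitters' processing notes, which give no version. Every probe set's median over the arrays is within 1e-06 of 0; the labels do not mention this centring. The annotation supplied named a single gene for 41091 probe sets and more than one for 1801, while 11777 had no gene; the 62 control probe sets were left out. RefSeq (GRCh38.p14) updated symbols and gave the promoters.

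Brightness classes were read from the rounding step of the upper 3 values, because centring removes levels. Of the brightest class 15.7% had a still coarser step, a share that does not measure how many probe sets are misplaced. Its membership is partly overstated. The only brightest-class probe sets of NDST1, NDST4, HS6ST1 and HS3ST1 fall a class lower by all 6 arrays. Each gene was averaged over the single-gene probe sets of the brightest class it reached, with _x_at probe sets used only where there was no other.

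Tests were 2-sided, by lmFit and eBayes of limma 3.58.1 (R 4.3.3), with Benjamini-Hochberg adjustment over all 19777 genes or all 54613 probe sets, checked on simulated data. The number of arrays limits the precision; the median SE was 0.075. The enzymes and lists were chosen with earlier results of these data known. Every enzyme is named; of the other pathway genes the rule names those past the threshold at 0.5 or more on the log2 scale. Alternatives were the probe sets averaged (with the same _x_at rule), the class from all 6 arrays, no dim genes, and array medians or quantiles. Others were a robust prior, replicate and spike-in blocks, each spike-in set alone, and each array left out.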

Additional observations from a re-analysis of the deposited data

How the results depend on the processing

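All 13 enzymes past the threshold kept their direction and call under the 14 alternatives that used 5 or 6 arrays. With an array left out the direction was fixed in advance, because the groups of arrays did not overlap for these enzymes. Over these, SLC35D1 ran from 0.74 to 1.26, HPSE from 0.87 to 0.96, EXT2 from -0.56 to -0.52 and HS3ST3B1 from -0.72 to -0.37. Within spike-in set 1 and set 2, with 3 arrays each, 2678 and 1882 genes passed in place of 5568, 6 and 6 enzymes in place of 13, 6 and 4 other pathway genes in place of 11, and 10 and 6 enzyme probe sets in place of 28; fewer arrays enter these fits. SDC1 passed under every alternative, between -2.63 and -2.28. Of 509 values of single enzymes under alternatives, 490 kept their call or lack of one. A further 14 lost the call, all within a spike-in set, and 5 gained it, for EXT1, NDST4 and HS6ST1. The 490 include values near 0 that passed in neither fit and changed sign, such as HS6ST1, at 0.02 and at -0.17 within spike-in set 1. No called value changed sign. The share of higher against lower calls moved by under 10 percentage points with other scalings. With the replicate number as a block (replicate block), 13 enzymes, 11 other pathway genes, 27 enzyme probe sets and 5457 genes passed, and the SDC1 log2 fold change was -2.42. Deviations of same-numbered arrays correlated at 0.015, 0.081 and 0.099 across genes, so the numbers were not taken as pairs; each array correlated best with its own number except control siRNA replicate 1, which did so with SDC1 siRNA replicate 2 (0.04). No signal over background was among the values, so calls of dim genes are limited by an unknown floor.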
